A study of Mus musculus with 7 samples.

Results

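Of the 10 genes for adenosine receptors and adenosine metabolism, 8 had enough counts to be tested. The test compared temperature-responsive with non-responsive ERα+ neurons of the medial preoptic area (MPA). Only Adora1, the A1 adenosine receptor, passed, and it was lower in the temperature-responsive samples. This was 1 of the 8 (12.5%), beside 30.0% of all genes tested. The 10 adenosine genes were taken by name from the 24062 gene symbols counted, and all were found. They comprise the 4 adenosine receptors (Adora1, Adora2a, Adora2b and Adora3), 2 ectoenzymes that make extracellular adenosine from ATP (Entpd1 and Nt5e), 2 equilibrative transporters (Slc29a1 and Slc29a2) and 2 enzymes that remove adenosine (Adk and Ada).

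Adenosine is released or formed outside cells as ATP is broken down, and it rises when energy demand exceeds supply. The A1 and A3 receptors couple to Gi/o proteins and lower cyclic AMP, and neuronal A1 receptors also open inwardly rectifying potassium channels and reduce transmitter release, whereas the A2A and A2B receptors couple to Gs proteins and raise cyclic AMP. Stimulation of central A1 receptors lowers body temperature in rodents, which is why adenosine is studied in torpor. The study also cites work in which loss of the A1 receptor left entry into torpor unchanged.

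The samples came from young adult Esr1-ZsGreen mice, which the methods give as female, and in which a transgene makes ERα cells fluoresce green, and every sample was ZsGreen positive. In brain slices, neurons were recorded while the bath was warmed by 5 °C, and the contents of 2 neurons with the same response were drawn into the pipette and pooled as 1 sample. The comparison was between 4 samples of neurons labelled temperature-responsive, whose firing rate rose past a cutoff with warming, and 3 samples labelled non-responsive, whose firing rate may have risen by less, all of which had been exposed to the same warming. The results and methods of the study give different values for the cutoff. How many mice gave the neurons of a group is not stated in the sources used here. A figure caption of the study gives 4 mice for its ERα-ZsGreen slice cells, so samples may share a mouse. The p-values therefore measure the spread between these samples, which may be partly technical.

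Totals lay between 1914497 and 2814360 counts in temperature-responsive and between 3309361 and 5125280 counts in non-responsive samples, while genes with at least 1 count numbered 19852 to 21177 and 17818 to 19820, so that neither measure overlapped between the groups. Summed olfactory receptor genes, which brain neurons barely use, also lay apart, at 328 to 797 CPM (the counts-per-million scale) of the library total in temperature-responsive and 46.2 to 252 CPM in non-responsive samples. The 5 neuronal markers summed to 2447 to 2810 CPM in temperature-responsive and 2247 to 2588 CPM in non-responsive samples. The 5 oligodendrocyte markers summed to 2776 to 3773 CPM and 2355 to 2978 CPM, which was not less. Levels below are therefore those of the samples, not of neurons alone. Each of the 5 markers of astrocytes, of microglia, of oligodendrocytes and of endothelial cells was also at or over the floor of 3 counts in every sample, so that transcripts of other cells were present. Esr1 itself had 10 to 27 counts. The Y-linked gene Ddx3y had 684 to 1150 counts per sample and Xist at most 14, so that in all 7 samples these genes went against the stated female sex, which is in doubt.

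Levels are given as CPM, a gene's counts relative to the total of its sample after TMM scaling, a correction for differences in composition between libraries. Differences were tested with edgeR's quasi-likelihood test over the 14407 genes that reached 10 counts in 3 or more samples, with Benjamini-Hochberg adjustment over all of them, and a gene counts as changed below an adjusted p of 0.05. Of the 10 adenosine genes, 8 entered the test, while Adora2a and Adora3 had too few counts. Of these 8, 1 passed the threshold, against 30.0% of all genes tested. Their median log2 fold change was 0.19, beside 0.0070 over all genes tested. For 2 of the 8, Adora1 and Adk, the CPM ranges of both groups were separate, against 35.4% of all genes tested. Neither share was above that of the genes at large.

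**Figure D1:**
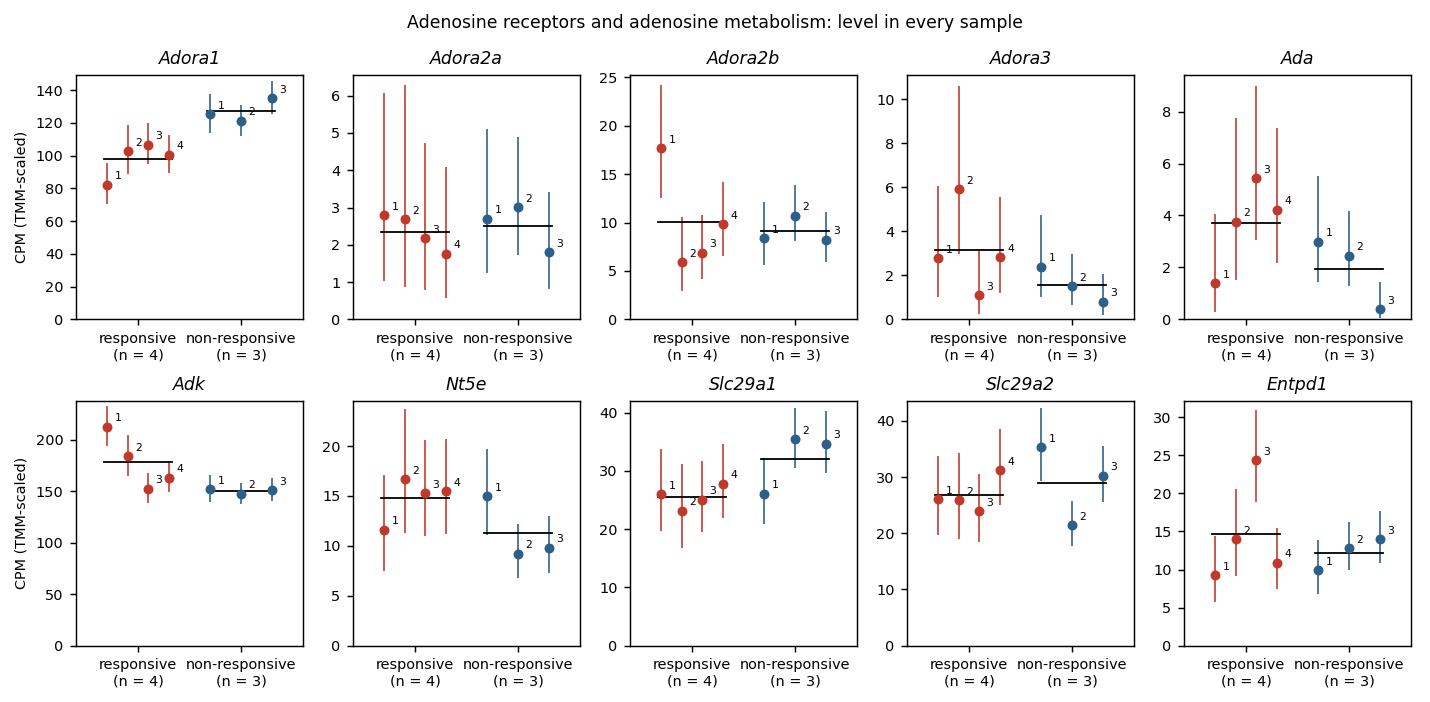
CPM of each adenosine gene (vertical axes, each from 0) in the 4 temperature-responsive (red) and 3 non-responsive (blue) samples, numbered by replicate, with exact 95% binomial intervals as bars and group means as black lines. The highest temperature-responsive Adora1 value, 107 CPM, lies under the lowest non-responsive value, 121 CPM, and the intervals of Adora2a, Adora3 and Ada are wide because they rest on at most 16 counts.

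Among the receptors, Adora1 (ENSMUSG00000042429, chromosome 1, 134199223 to 134235431, mm10) was measured best. It had 177, 191, 294 and 286 counts in temperature-responsive replicates 1 to 4, or 82.2, 103, 107 and 101 CPM. In non-responsive replicates 1 to 3 it had 418, 645 and 675 counts, or 125, 121 and 135 CPM. Every temperature-responsive sample was therefore lower than every non-responsive sample, with temperature-responsive replicate 1 the lowest. The mean was 98.1 ± 10.9 CPM (SD, n = 4) against 127 ± 7.10 CPM (SD, n = 3), a log2 fold change of -0.37 (standard error, SE, 0.107, edgeR adjusted p = 0.0106). With all samples drawn down to the lowest total it was as large, -0.39 (edgeR adjusted p = 0.0137). Without non-responsive replicate 3 it was -0.33 and missed the threshold (edgeR adjusted p = 0.0566). With the count of detected genes as a covariate, a measure that itself separates the groups, it was -0.40 with a larger standard error of 0.181 (edgeR adjusted p = 0.316).

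In the GENCODE annotation, 20.1% of the exonic bases of Adora1 are shared with Mybph on the opposite strand, where reads may be left uncounted if strand was not used. Mybph had at most 3 counts in any sample. The 3 genes whose log2 CPM followed that of Adora1 most closely over the 7 samples were Grn (Pearson's r = 0.990), Faah (0.987) and Gria1 (0.987), all also lower in temperature-responsive samples, and 447 of the 14406 other genes tested had an r above 0.9. With 7 samples in groups that differ in many genes, these values are a description, in which the samples share their groups and libraries.

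The other Gi/o-coupled receptor, Adora3 (chromosome 3, 105870858 to 105908926), was close to the floor. It had 6, 11, 3 and 8 counts in temperature-responsive replicates 1 to 4 and 8, 8 and 4 counts in non-responsive replicates 1 to 3. The levels of 1.09 to 5.92 CPM and 0.801 to 2.40 CPM overlapped between the groups. The difference in mean CPM of 1.59 was within the sample spread (two-sided exact permutation p = 0.286, where 4 samples against 3 allow no p below 0.0571). Summed over samples, 28 counts against 20 gave a ratio of 1.99 after scaling, with an exact 95% interval of counting error from 1.08 to 3.72. In the annotation, 20.9% of its exonic bases are shared with Tmigd3 on the same strand, which was not analysed here. Low counts were unevenly spread in general. Of the 8390 genes below the filter with at least 1 count, 88.1% had a higher mean CPM in temperature-responsive samples, the group with the higher olfactory receptor sums, and their part in the value for Adora3 was not tested.

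Of the Gs-coupled receptors, Adora2b (chromosome 11, 62248984 to 62266453), the low-affinity A2B receptor, had 17.6, 5.92, 6.90 and 9.84 CPM in temperature-responsive replicates 1 to 4, from 38, 11, 19 and 28 counts. The non-responsive replicates 1 to 3 had 8.39, 10.7 and 8.21 CPM, from 28, 57 and 41 counts. Temperature-responsive replicate 1 was the highest and replicate 2 the lowest of all samples, and the 3 non-responsive samples lay between them. The log2 fold change was 0.13 (SE 0.324, edgeR adjusted p = 0.786), and it became -0.26 without temperature-responsive replicate 1. Adora2a (chromosome 10, 75316877 to 75334784), the A2A receptor of striatal projection neurons, was detected in every sample on few counts, 6, 5, 6 and 5 in temperature-responsive and 9, 16 and 9 in non-responsive samples. Its level was 2.35 ± 0.479 CPM (SD, n = 4) and 2.50 ± 0.627 CPM (SD, n = 3), a difference of -0.15 CPM within the sample spread (two-sided exact permutation p = 0.743). The ratio of summed counts was 0.919, with an exact 95% interval from 0.512 to 1.62, which covers counting error only. A list of 5 genes of striatal A2A-type neurons summed to 166 to 245 CPM in temperature-responsive and 268 to 301 CPM in non-responsive samples.

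Levels of different genes were compared as CPM per kilobase of exonic length (CPM/kb), with lengths from the annotation of the same build. Adora1 carried most of the adenosine receptor signal in every sample, 55.9% to 79.6% of the summed CPM/kb of the 4 receptors in temperature-responsive and 74.5% to 81.6% in non-responsive samples. Adora2b followed with 13.7% to 37.6% over all samples. Adora2a and Adora3 each made up at most 3.75% and 6.77%. The lowest share of Adora1 and the highest of Adora2b were those of temperature-responsive replicate 1.

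**Figure D2:**
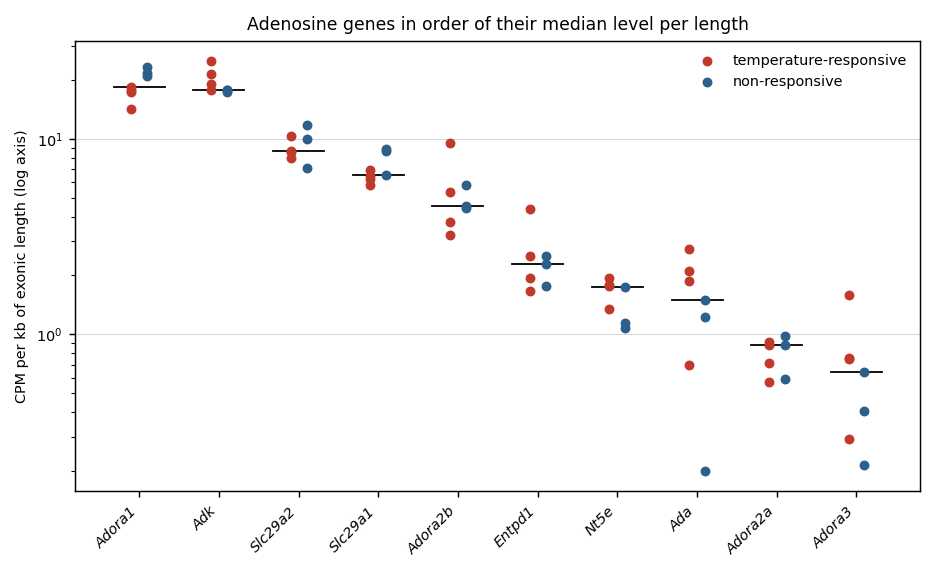
CPM per kilobase of exonic length (log axis) of the adenosine genes, ordered by their median over the 7 samples (black lines), with temperature-responsive samples in red and non-responsive samples in blue. Adora1 and Adk lie highest, with medians of 18.5 and 17.9 CPM/kb and overlapping ranges, and all their values lie above those of the other 8 genes.

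Adora1 and Adk thus had the highest levels per length, and their ranges over the 7 samples overlapped (14.2 to 23.4 and 17.3 to 25.0 CPM/kb). The next gene, Slc29a2, had at most 11.7 CPM/kb and did not overlap with Adk. Below it, each neighbour in the order Slc29a2, Slc29a1, Adora2b, Entpd1, Nt5e, Ada, Adora2a and Adora3 overlapped with the next, so that their order is not resolved step by step.

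Extracellular adenosine is made from ATP in 2 steps, of which Entpd1 (CD39) does the first, to AMP, and Nt5e (CD73) the second. Entpd1 (chromosome 19, 40612366 to 40741602) had 9.29, 14, 24.3 and 10.9 CPM in temperature-responsive and 9.89, 12.8 and 14 CPM in non-responsive samples. Temperature-responsive replicate 3 was the highest by far and the other samples overlapped. The log2 fold change of 0.26 (SE 0.283, edgeR adjusted p = 0.515) was -0.12 without that sample. Entpd1 is abundant in microglia and endothelial cells. The 5 microglia markers summed to 303 to 367 CPM in temperature-responsive and 371 to 404 CPM in non-responsive samples, and the 5 endothelial markers to 79.8 to 229 CPM and 15.0 to 58.4 CPM. Of these markers 1 of 5 was lower and 3 of 5 were higher in temperature-responsive samples, respectively, none was at 0 in any sample, and their part in the Entpd1 level was not tested.

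Nt5e (chromosome 9, 88327197 to 88372092) had 11.6, 16.7, 15.2 and 15.5 CPM in temperature-responsive and 15.0, 9.22 and 9.81 CPM in non-responsive samples. Non-responsive replicate 1 lay among the temperature-responsive samples, so the groups overlapped. The log2 fold change was 0.40 (SE 0.254, edgeR adjusted p = 0.237), and 0.63 without non-responsive replicate 1 (edgeR adjusted p = 0.0852).

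Equilibrative transporters carry adenosine across the membrane in either direction along its gradient. For Slc29a1 (ENT1, chromosome 17, 45585200 to 45599606), levels were 26.0, 23.2, 25.1 and 27.8 CPM in temperature-responsive and 26.1, 35.4 and 34.6 CPM in non-responsive samples. Non-responsive replicates 2 and 3 were the highest, and replicate 1 lay within the temperature-responsive range. The log2 fold change was -0.33 (SE 0.171, edgeR adjusted p = 0.144), negative in every alternative fit that was run and past the threshold in none of the 19. An antisense gene, Gm17080, shares 6.86% of its exonic bases and was not analysed here. For Slc29a2 (ENT2, chromosome 19, 5023860 to 5031972), levels were 24.0 to 31.3 CPM in temperature-responsive and 21.5 to 35.4 CPM in non-responsive samples, with a log2 fold change of -0.097 (SE 0.188, edgeR adjusted p = 0.729). The temperature-responsive samples lay wholly inside the non-responsive range.

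Adenosine is removed by Adk, the kinase that returns it to AMP and the main sink of adenosine in the adult brain, where it is abundant in astrocytes, or by Ada, the deaminase that turns it into inosine. Adk (chromosome 14, 21052574 to 21448569) had 458, 342, 420 and 465 counts in temperature-responsive replicates 1 to 4, or 213, 184, 153 and 163 CPM. The non-responsive replicates 1 to 3 had 508, 784 and 756 counts, or 152, 148 and 151 CPM. The non-responsive samples lay close together, and all 4 temperature-responsive samples lay above them, replicate 3 only just. The log2 fold change of 0.24 (SE 0.106) missed the threshold (edgeR adjusted p = 0.0877). It passed with upper quartile normalization (0.31, edgeR adjusted p = 0.0299), and turned to -0.11 with an offset for GC content (edgeR adjusted p = 0.479). The GC content of its longest transcript, 37.5%, is the lowest of the 10 genes, and log2 fold changes fell with GC content across the genes tested (Spearman's rho = -0.341 over 13720 genes, which are not independent replicates). With the same offset, Adora1, at 54.2% GC, stayed at -0.34 (edgeR adjusted p = 0.0173). The 5 astrocyte markers summed to 1083 to 1261 CPM in temperature-responsive and 876 to 1068 CPM in non-responsive samples, again without overlap (2 of 5 higher, 1 lower, none at 0 in any sample), and their part in the Adk level was not tested.

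**Figure D3:**
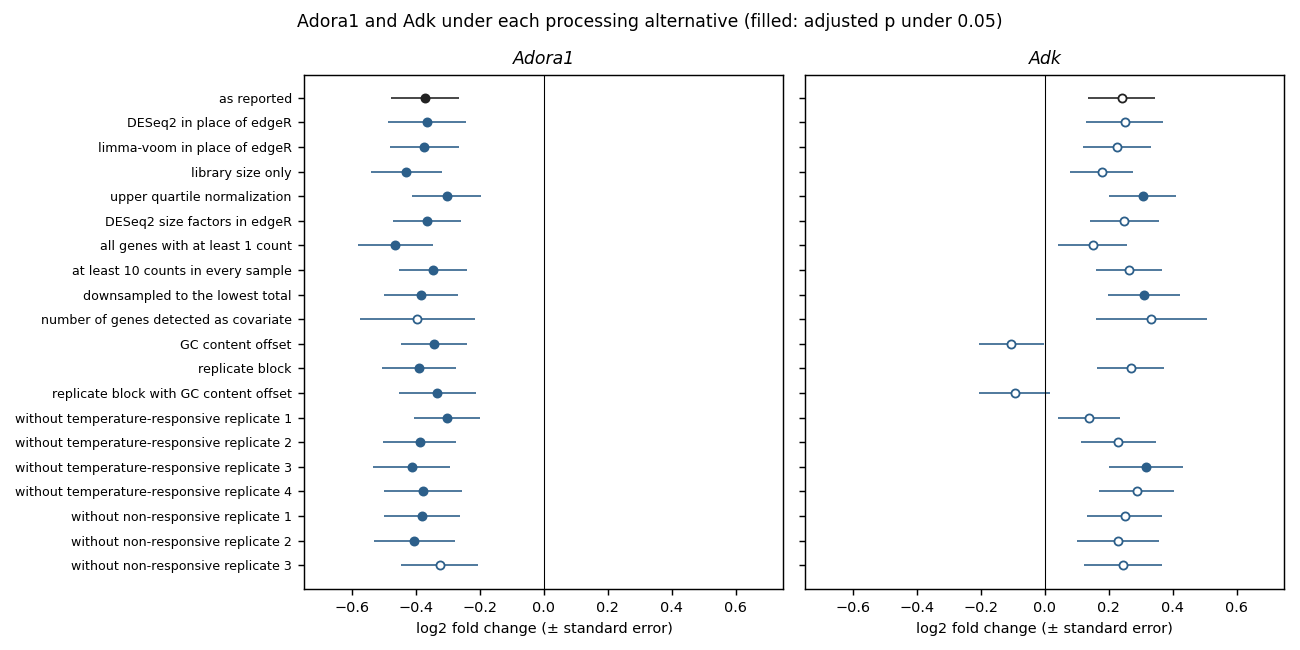
Log2 fold change (temperature-responsive minus non-responsive, horizontal axis, ± standard error) of Adora1 and Adk as reported (black) and under each alternative (blue), filled where the adjusted p is under 0.05. Adora1 stays between -0.47 and -0.31, whereas Adk spans -0.11 to 0.33 and lies below 0 in both fits with the GC content offset.

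Ada (chromosome 2, 163726584 to 163750239) had 3, 7, 15 and 12 counts in temperature-responsive and 10, 13 and 2 counts in non-responsive samples. Non-responsive replicate 3 was the only sample of any adenosine gene below the floor of 3 counts. At 1.39 to 5.44 CPM and 0.400 to 3.00 CPM the groups overlapped, and the log2 fold change of 0.99 had a standard error of 0.605 (edgeR adjusted p = 0.221). Without non-responsive replicate 3 it was 0.49. Per length, Adk exceeded Ada in each sample, by a factor of 6.58 to 35.9 in temperature-responsive and 11.9 to 88.8 in non-responsive samples, where the largest factors rest on 2 or 3 counts of Ada.

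Other genes of purine metabolism and signalling set these values in context. Of 26 further enzymes that handle adenosine, AMP or their products, 22 were tested, 2 were higher and 5 lower in temperature-responsive samples (31.8% called, beside 30.0% of all genes tested), with a median log2 fold change of -0.17. Hprt, which salvages hypoxanthine, was higher, at 488 ± 59.7 CPM (SD, n = 4) against 349 ± 46.6 CPM (SD, n = 3), a log2 fold change of 0.48 (edgeR adjusted p = 0.00240) that was 0.20 and missed the threshold with the GC content offset. Alpl, an alkaline phosphatase that also dephosphorylates AMP and marks brain endothelium, was higher by 1.23 (edgeR adjusted p = 0.00645), with 8.08 to 25.4 CPM against 5.64 to 8.09 CPM. Its call was lost without temperature-responsive replicate 3 (0.89). The endothelial marker sums given above were higher in the same group, and their part in the Alpl level was not tested. Ak5, a brain adenylate kinase, was lower, at 89.6 to 136 CPM against 154 to 160 CPM, a log2 fold change of -0.46 (edgeR adjusted p = 0.00365). The other lower genes were Ak1, Ampd2, Aprt and Nt5m, between -0.29 and -0.42. Of the 7 fits that left out 1 sample, Ak1 passed in 2, Aprt in 3, Nt5m in 4 and Ampd2 in 5, and Ak1, Ampd2 and Aprt missed the threshold with the GC content offset, as did Ak1 and Aprt with DESeq2.

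Of 13 genes for other ATP and ADP ectoenzymes and for ATP release, 10 were tested, 2 were higher and 2 lower, or 4 of 10 beside the 30.0% of all genes tested, with a median of -0.064. Entpd6, an ectonucleotidase of the secretory pathway, was lower by -0.41 on the log2 scale (edgeR adjusted p = 0.0133), at 59.7 to 77.5 CPM against 81.1 to 95.3 CPM. It missed the threshold with all samples drawn down to the lowest total, with the replicate block, and without temperature-responsive replicate 4 or non-responsive replicate 3. Panx2, a pannexin, was lower by -0.45 (edgeR adjusted p = 0.0423), with overlapping groups, and lost its call in 6 of 7 fits that left out 1 sample. With the GC content offset Panx2 was at -0.21 (edgeR adjusted p = 0.431), and it also missed the threshold with DESeq2. Entpd8 was higher on 9, 13, 10 and 26 counts against 7, 4 and 1 (edgeR adjusted p = 0.00277), a ratio of summed counts of 6.86 with an exact 95% interval of counting error from 3.65 to 14. The difference in its mean CPM gave a two-sided exact permutation p of 0.0571, the smallest that 4 samples against 3 allow. Entpd8 reached 10 counts only in temperature-responsive replicates 2, 3 and 4, so it entered the test through the group where it was higher. Of the 7 fits that left out 1 sample, the 4 that kept these replicates could test it, each past the threshold. These passes are therefore no separate support. With the covariate its log2 fold change went from 2.67 to 0.71 (edgeR adjusted p = 0.758). Enpp2, the lysophospholipase autotaxin, was higher by 0.27, but with the GC content offset by 0.12, which did not pass, and it passed in 3 of the 7 fits that left out 1 sample. Entpd4 was listed at 0 counts in every sample.

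Of 6 other nucleoside transporters and anchors, 4 were tested and 1 passed, beside 30.0% of all genes tested. This was the concentrative transporter Slc28a1, which was higher on 4, 13, 14 and 21 counts against 6, 5 and 2 (edgeR adjusted p = 0.00505). Its ratio of summed counts was 5.68, with an exact 95% interval of counting error from 3.05 to 11.4. The two-sided exact permutation p of the difference in mean CPM was 0.0571, again the smallest possible. Like Entpd8, Slc28a1 reached 10 counts only in temperature-responsive replicates 2, 3 and 4. It therefore entered the test through the group where it was higher. Of the 7 fits that left out 1 sample, it could be tested only in the 4 that kept these replicates. Its passes in those fits are no separate support. With the covariate its log2 fold change went from 2.41 to 0.48 (edgeR adjusted p = 0.854). Slc29a4, a monoamine and adenosine transporter of the plasma membrane, had a log2 fold change of -0.44 (edgeR adjusted p = 0.128) and Dpp4, a peptidase that anchors adenosine deaminase in human cells, one of 0.38 (edgeR adjusted p = 0.534).

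Among 14 receptors for ATP, ADP and UTP, 9 were tested and 1 was higher (11.1%, beside 30.0% of all genes tested), with a median of 0.34. This was P2ry12, the ADP receptor of microglia, at 101 to 121 CPM against 79.0 to 91.3 CPM, a log2 fold change of 0.34 (edgeR adjusted p = 0.0203) that was 0.019 with the GC content offset and missed the threshold without temperature-responsive replicate 2 or non-responsive replicate 2. None of the 5 microglia markers was higher in temperature-responsive samples, where 1, Csf1r, was lower, and their part in the P2ry12 level was not tested. P2rx7 had a log2 fold change of 0.65 (edgeR adjusted p = 0.0785) and P2rx6 one of 0.95 (edgeR adjusted p = 0.130). Of the 14 genes of these lists below the filter, 12 had a higher mean CPM in temperature-responsive samples and 1 a lower one, on at most 21 counts, beside the 88.1% given above for all such genes.

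All 16 genes chosen for signalling downstream of adenosine receptors were tested, and 3 were higher and 3 lower (37.5% called, beside 30.0% of all genes tested), with a median of -0.10. The inhibitory G protein subunits that A1 receptors use did not move one way. Gnai3 was higher, at 112 to 124 CPM against 67.8 to 81.5 CPM, a log2 fold change of 0.61 (SE 0.108, edgeR adjusted p = 0.000358). Gnai1 was higher by 0.38, but by 0.16 and below the threshold with the GC content offset. Gnai2 was lower, at 170 to 202 CPM against 239 to 262 CPM, a log2 fold change of -0.45 (SE 0.0938, edgeR adjusted p = 0.00119). For Gnao1, the Go subunit, which is abundant in neurons, the log2 fold change was -0.15 (edgeR adjusted p = 0.226).

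Kcnj9, a subunit of the inwardly rectifying potassium channels that Gi/o-coupled receptors open, had 14.9 to 19.3 CPM in temperature-responsive and 29.7 to 37.6 CPM in non-responsive samples. It was lower without overlap, by a log2 fold change of -1.01 (SE 0.183, edgeR adjusted p = 0.000450), and the fits that left out 1 sample gave -1.10 to -0.95. The other subunits Kcnj6 (-0.59, edgeR adjusted p = 0.0502) and Kcnj3 (-0.32, edgeR adjusted p = 0.500) did not pass. Adcy5, an adenylyl cyclase inhibited through Gi, was lower by -0.71 (edgeR adjusted p = 0.00366), and Gnas, the Gs subunit of the A2A and A2B receptors, was higher by 0.37 (edgeR adjusted p = 0.0163), a call lost without temperature-responsive replicate 2 or non-responsive replicate 2 or 3. With the count of detected genes as a covariate, no gene of the purine lists passed the threshold, edgeR calling 1 gene in all.

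**Figure D4:**
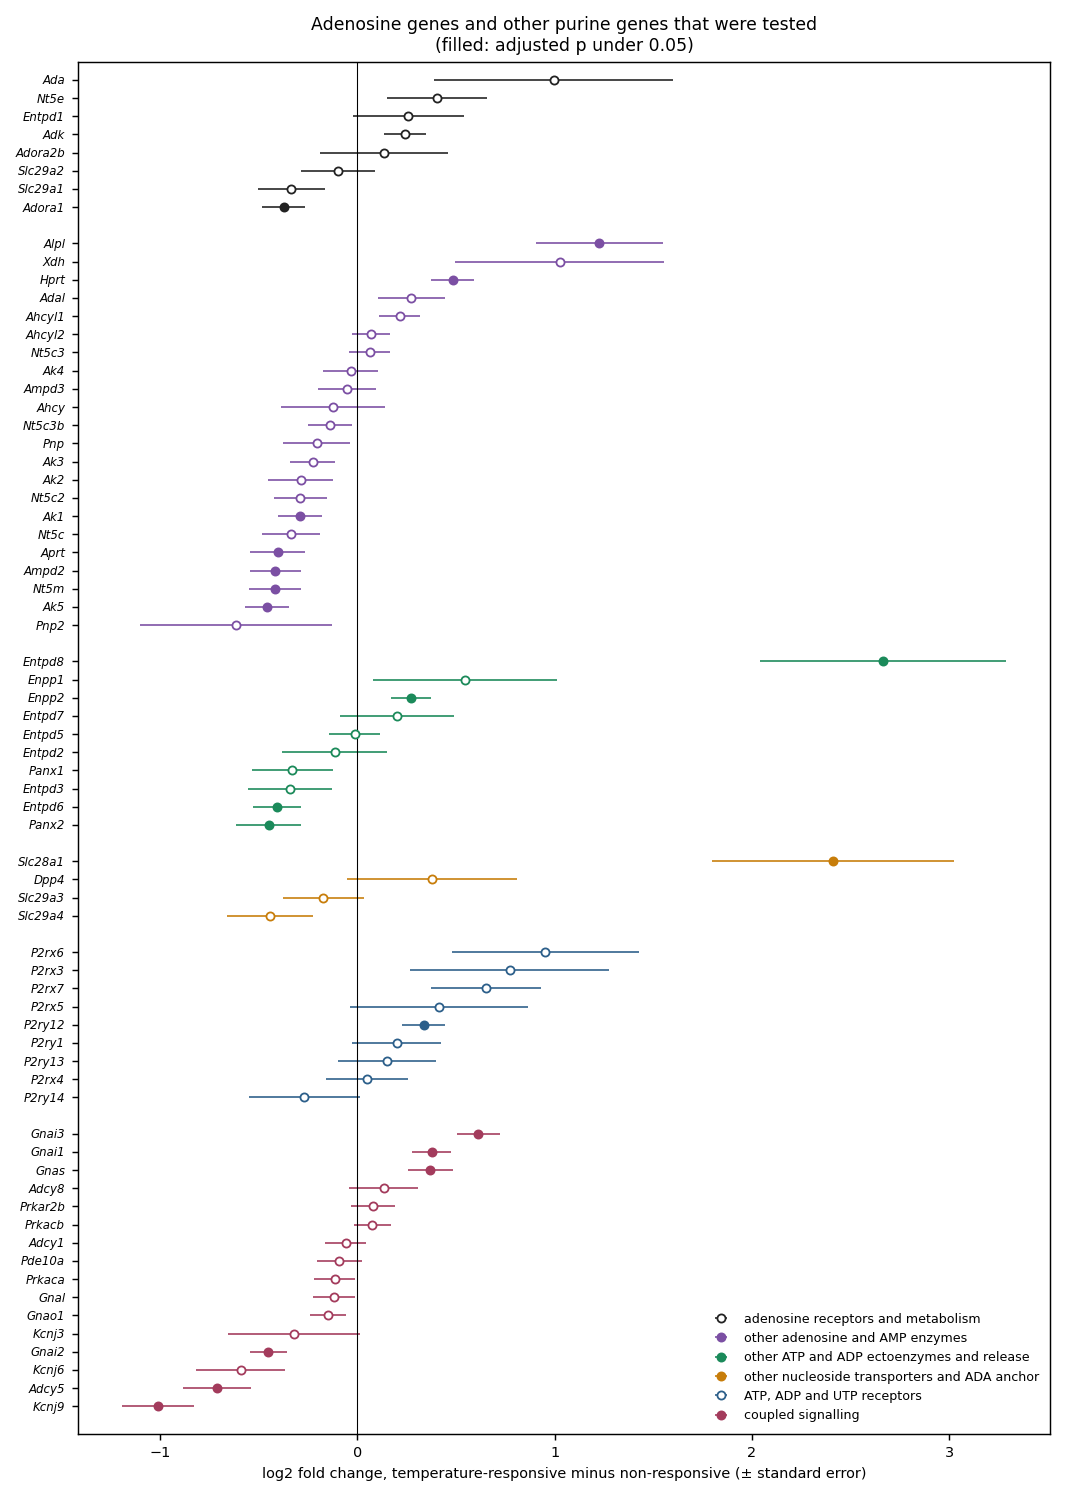
Log2 fold change (temperature-responsive minus non-responsive, horizontal axis, ± standard error) of the tested adenosine genes (black) and of the other purine genes by list (colours), filled where the adjusted p is under 0.05. Among the adenosine genes only Adora1, at -0.37, is filled, and Kcnj9, at -1.01, is the lowest point of all.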

How the data were processed

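RNA was amplified with SMART-seq V4, and libraries were made with Nextera XT. Per the labels, the authors used STAR 2.6.0 with the mm10 build, removed duplicates with RmDup and deposited read counts per gene symbol from htseq-count (HTSeq 0.9.1), not normalized. Annotation, strand setting and overlap rule are not given in the sources used here. The protocol had no molecular identifiers, so duplicate removal may discard true copies of abundant transcripts, and intervals and floors cover counting error only. The study tested genes with DESeq2, which is an alternative here.

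Genes that reached 10 counts in 3 or more samples entered edgeR 4.0.16 (robust quasi-likelihood, TMM, R 4.3.3) for temperature-responsive against non-responsive samples without covariates, and the code was tested on simulated data. Each standard error was the log2 fold change over the square root of F. For genes below the filter, and for Entpd8 and Slc28a1, mean CPM was compared by exact permutation (scipy 1.17.1). Its two-sided p comes from doubling the smaller tail, and the smallest p given above holds for this form. DESeq2 1.42.0 and limma 3.58.1 served as alternatives, beside other normalizations, filters, depth, a covariate, a GC content offset (a spline of GC of the longest transcript) and the omission of each sample. GENCODE M21 (mm10) gave coordinates, exonic lengths and GC content, and there 94.4% of the symbols were found once. Members of the gene group and all lists were chosen with earlier results of these data known. All 10 adenosine genes are named, with the 3 genes of smallest adjusted p in each other list and the 3 genes most like Adora1. Further genes were named after their values were seen. Sample pairs of 1 group differed by more than counting noise (chi-square 1.94 to 5.36 per degree of freedom), so each was counted once.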

Additional observations from a re-analysis of the deposited data

How the results depend on the processing

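The number of genes past the threshold, 4327 as reported, was 1 with detected genes per sample as a covariate (2062 at an unadjusted p under 0.05, edgeR) and 2620 to 4583 with each sample left out, the lowest without non-responsive replicate 3. Of the adenosine genes 1 passed as reported, 2 with upper quartile normalization and with counts drawn down (Adora1 and Adk), 0 with the covariate (1 at an unadjusted p under 0.05, Adora1, edgeR) and 0 to 2 with each sample left out, 0 without non-responsive replicate 3 and 2 without temperature-responsive replicate 3. Adora1 was -0.40 and below the threshold with the covariate, and -0.41 to -0.31 with each sample left out. Leaving out each sample gave 4 to 8 of the other adenosine and AMP enzymes (7 as reported), 1 to 3 of the ectoenzymes and release genes (4), 0 to 1 of the transporters and anchors (1), 0 to 2 of the ATP, ADP and UTP receptors (1) and 5 to 7 of the signalling genes (6). With the covariate each of these lists gave 0. The enzymes gave 11 without the count filter and 4 with block and GC offset together (the replicate block). The ectoenzymes and release genes gave 1 with counts drawn down, 2 with the GC content offset, 2 with the replicate block and 1 with the block and the offset. The transporters gave 0 with counts drawn down and with at least 10 counts in every sample, filters that leave fewer genes. The ATP, ADP and UTP receptors gave 0 with library size only, with counts drawn down and with either GC content offset, and 2 without the count filter. Where no reason is given, the cause was not tested.

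Directions that changed were those of Adk with the GC offset (-0.11, or -0.095 beside the replicate block), of Slc29a2 with the GC content offset (0.020), of Adora2b with counts drawn down (-0.12), of Ada (-0.52) and Nt5e (-0.14) with the covariate, and of the Adora2a difference with counts drawn down (0.044 CPM). With each sample left out, Adora2b ranged from -0.26 to 0.30, Slc29a2 from -0.28 to 0.059, Entpd1 from -0.12 to 0.41 and Adora2a from -0.50 to 0.10 CPM. None of these 7 genes passed the threshold as reported. Among calls of all genes, 50.3% were higher in temperature-responsive samples, 40.9% with library size only, 62.1% with upper quartile normalization and 37.8% with the GC content offset, and the median log2 fold change over shared genes moved most, by -0.092, without the count filter.

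Replicate numbers are shared between the groups but name different neurons. Deviations of same-numbered samples from their group means correlated at -0.128, -0.0618 and 0.0316, and not every sample correlated best with its own number. With the replicate block 4124 genes passed, and Adora1 had -0.39 (adjusted p = 0.0127, edgeR).

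Depth limits the genes near the floor of 3 counts. At that floor 9 of the 10 adenosine genes were detected in every sample, at 1 count 10 and at 10 counts 7.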
